A study of Mus musculus with 12 samples.

Results

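The genes for 6 subunits of the NMDA receptor, Grin1, Grin2a, Grin2b, Grin2c, Grin2d and Grin3a, were followed in the hippocampi of 12 mice from 2 Shank2 mutant lines. They were chosen by name and matched by Ensembl gene identifier in the table of each mouse, and all 6 were found among 24590 genes listed in at least 1 mouse. Each of the 6 passed the filter on low values (a mean of at least 1 FPKM) and is among the 14215 genes tested. FPKM counts fragments relative to the length of the transcript and to the size of the library, and all levels below are FPKM scaled between libraries unless a ratio is given. The exon 6-7 line lacks exons 6 and 7 of Shank2 and the exon 7 line lacks exon 7. Each line gave 3 wild-type and 3 knockout mice, all male littermates of 8 to 15 weeks on a mixed C57BL/6J and C57BLl/6N background (spelled as in the labels). The labels name no promoter, Cre or cell type for either deletion, and each mouse gave 1 library of poly(A) RNA from whole hippocampi.

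NMDA receptors are glutamate-gated channels that let calcium into the postsynaptic cell, and they are needed for most forms of synaptic plasticity in the hippocampus. Each channel holds the obligatory GluN1 subunit (Grin1), which binds the co-agonist glycine or D-serine, together with GluN2 subunits (Grin2a to Grin2d), which bind glutamate and set the kinetics and magnesium block, or GluN3 subunits (Grin3a, Grin3b), which bind glycine and lower calcium entry. In forebrain, GluN2B dominates early in life and GluN2A joins it as the animal matures, while Grin2c is best known from cerebellar granule cells and astrocytes and Grin2d from interneurons. Shank2 is a scaffold of the postsynaptic density that is linked to these receptors through DLGAP and DLG proteins, and the comparison of knockout with wild-type mice asks whether its loss goes with other levels of the receptor's own transcripts.

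Grin1 (ENSMUSG00000026959) lies on chromosome 2 at 25291181 to 25319187 of GRCm38, the build that mm10 names, on the minus strand. Grin2a (ENSMUSG00000059003) lies on chromosome 16 at 9567898 to 9995560 and Grin2b (ENSMUSG00000030209) on chromosome 6 at 135713233 to 136173511, both on the minus strand. Grin2c (ENSMUSG00000020734) lies on chromosome 11 at 115249169 to 115267243, Grin2d (ENSMUSG00000002771) on chromosome 7 at 45831883 to 45878378, and Grin3a (ENSMUSG00000039579) on chromosome 4 at 49661611 to 49845744, all on the minus strand. The genes differ most in what follows the coding sequence. The longest annotated transcript of Grin2b has 24060 bases, of which 4449 are coding and 18865 are 3' UTR, and that of Grin2a has 14634 bases, of which 4395 are coding and 9929 are 3' UTR. Grin1 (4276 bases), Grin2c (4895 bases) and Grin2d (5431 bases) are shorter, with 3' UTRs of 1187, 402 and 897 bases, and Grin3a, with 7491 bases and a 3' UTR of 3615 bases, lies between. Of all tested genes with an annotated length, 99.5% have a shorter longest transcript than Grin2a and 67.8% a shorter one than Grin1.

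Since the subunits are paralogs, their sequences were compared to see how far reads of one could be counted for another. No window of 50 bases of any member's longest transcript occurs in a transcript of another member. The pair whose ratio is reported below, Grin2a and Grin2b, share no identical run longer than 24 bases. That run is shown with 4 bases on each side, written 5' to 3' in the sense of the transcript, with the identical part in capitals. It is coding and spans the junction of exons 10 and 11 in Grin2a (chr16:9644244-9653411) and in Grin2b (chr6:135741067-135772208), intron included, both on the minus strand of GRCm38.
Grin2a, run shared with Grin2b: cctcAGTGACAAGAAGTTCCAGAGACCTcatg
Grin2b, run shared with Grin2a: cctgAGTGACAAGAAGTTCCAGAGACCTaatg
Outside the family, 14.3% of the 50-base windows of Grin2a also occur in other genes on the same strand. The gene with the most of them is the processed pseudogene Gm7328, which was not analysed here. On the opposite strand, other genes match 19.5% of the windows of Grin1 (most in Grin1os) and 9.29% of those of Grin2d (most in Gm45441). For Grin2c and Grin2b these shares were 0.908% (most in Gm25837) and 0.562% (most in Gm14329). The sources used here do not give how reads on either strand or with several matches were counted. Levels of Grin1, Grin2a, Grin2d and, less so, Grin2b and Grin2c are thus uncertain by the reads such partners may take or lend. Grin1os was listed at 1.57 to 2.61 among exon 6-7 mice and at 3.07 to 4.52 among exon 7 mice, against 145 to 194 for Grin1.

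Read totals are not kept by FPKM, so the depth of each library is unknown, and each library listed 19515 to 20334 genes. Shank2 served as the check of the genotype: exon 6-7 wild-type mice had a level of 14.4 ± 0.576 and knockout mice one of 6.47 ± 0.483 (SD, n = 3 each; log2 fold change -1.05, limma adjusted p = 0.0110). For the exon 7 line the levels were 40.8 ± 4.24 and 40.5 ± 6.29 (adjusted p = 1), so that a level over the whole gene does not check the deletion of exon 7. Markers of hippocampal neurons were present in every library (Neurod6 104 to 144, Prox1 7.41 to 34.9, Wfs1 51.5 to 65.9), and the 3 cerebellar granule cell markers summed to at most 0.490 in 11 mice and to 6.15 in the remaining one, a wild type of the exon 7 line. The 5 choroid plexus markers, led by Ttr, summed to 42.0, 3975 and 8613 in the exon 6-7 wild-type mice, to 6726 to 8407 in the knockout mice of that line, and to 1415 to 2281 among exon 7 mice. No gene of the 15 marker lists was called between knockout and wild type in either line, where 0.0141% and 0% of all tested genes were. Some sums were lower in every knockout than in every wild-type mouse. These were oligodendrocyte (4465 to 4615 against 5073 to 6386) and CA1 markers (171.5 to 182 against 193 to 197) in exon 6-7 mice. In exon 7 mice they were oligodendrocyte (4472 to 4790 against 4870 to 5128) and neocortical markers (51.1 to 53.3 against 54.4 to 58.4). The cerebellar sum, near 0, was higher in every exon 6-7 knockout mouse. In 4 libraries, 1 in each group, the gene ENSMUSG00000095746 was not listed while the other 8 held it at 218 to 435 FPKM. The mitochondrial share of summed FPKM was 6.22 to 7.39% in the 6 exon 6-7 libraries, 10.3 to 10.9% in 4 exon 7 libraries and 13.6 and 14.3% in the 2 exon 7 libraries of that set, so that the lines did not overlap.

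Among the subunits, Grin1 had the highest level in all 12 mice. It was 155, 171 and 162 in the exon 6-7 wild-type mice and 145, 158 and 149 in the knockout mice. Exon 7 mice had 147, 187 and 173 in the wild-type and 150, 188 and 194 in the knockout mice. The groups of each line overlapped, and the lowest mouse of both exon 7 groups came from the set of 4 libraries named above. GluN1 is part of every NMDA receptor, so its transcript serves as the common denominator of the ratios below.

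Grin2b, the GluN2 subunit with the long C-terminal tail that binds CaMKII, had the highest GluN2 level in the exon 7 line. Its level was 12.9, 12.3 and 10.3 in the exon 6-7 wild-type mice and 14.5, 16.4 and 9.49 in the knockout mice. Exon 7 mice had 78.8, 65.0 and 67.1 in the wild-type and 70.6, 69.4 and 59.5 in the knockout mice. Every exon 7 mouse stood above every exon 6-7 mouse, while wild type and knockout overlapped in both lines. Among exon 7 mice the 2 libraries of the set of 4 held the highest values (70.6 and 78.8, against 59.5 to 69.4).

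Grin2a, the GluN2 subunit of mature, fast synaptic receptors, showed the widest gap between the lines. Its level was 0.687, 1.60 and 1.16 in the exon 6-7 wild-type mice and 1.21, 1.34 and 0.822 in the knockout mice, the lowest of the 6 subunits in that line. Exon 7 mice had 12.5, 15.4 and 16.0 in the wild-type and 11.7, 14.3 and 14.3 in the knockout mice. Genotypes overlapped in both lines, and all 6 exon 7 mice lay far above all 6 exon 6-7 mice. Among exon 7 mice the 2 libraries of the set of 4 held the lowest values (11.7 and 12.5, against 14.3 to 16.0).

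Grin2c and Grin2d, whose channels carry a weak magnesium block, had overlapping levels in the lines. Grin2c was at 14.8, 11.3 and 11.9 in the exon 6-7 wild-type mice, 12.9, 11.6 and 10.9 in the knockout mice, 13.3, 12.0 and 14.1 in the exon 7 wild-type mice and 12.1, 10.8 and 12.6 in the knockout mice. Grin2d was at 5.93, 4.10 and 4.21 in the exon 6-7 wild-type mice, 6.19, 4.64 and 3.88 in the knockout mice, 3.77, 5.01 and 4.0 in the exon 7 wild-type mice and 3.66, 4.47 and 4.57 in the knockout mice. All 4 groups overlapped for both genes. Among exon 6-7 mice the 2 libraries of the set of 4 held the highest Grin2c and Grin2d values, and among exon 7 mice the set held the lowest Grin2d values.

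Grin3a, whose subunit dampens calcium entry and spine stabilization, varied least of the 6 in the exon 7 line (coefficient of variation 3.32% over its 6 mice), while Grin1 did in the exon 6-7 line (6.03%, against 8.24% for Grin3a). The level of Grin3a was 3.58, 3.81 and 4.16 in the exon 6-7 wild-type mice and 4.34, 4.47 and 4.21 in the knockout mice, so that every knockout mouse stood above every wild-type mouse there. Exon 7 mice had 9.95, 9.72 and 9.86 in the wild-type and 10.1, 10.7 and 9.95 in the knockout mice, with the lowest knockout and the highest wild-type mouse at the same value to 3 digits. Its paralog Grin3b, best known from motor neurons, was listed at 0.0408 to 0.417 in the 12 mice, under the filter, and was not tested.

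**Figure D1:**
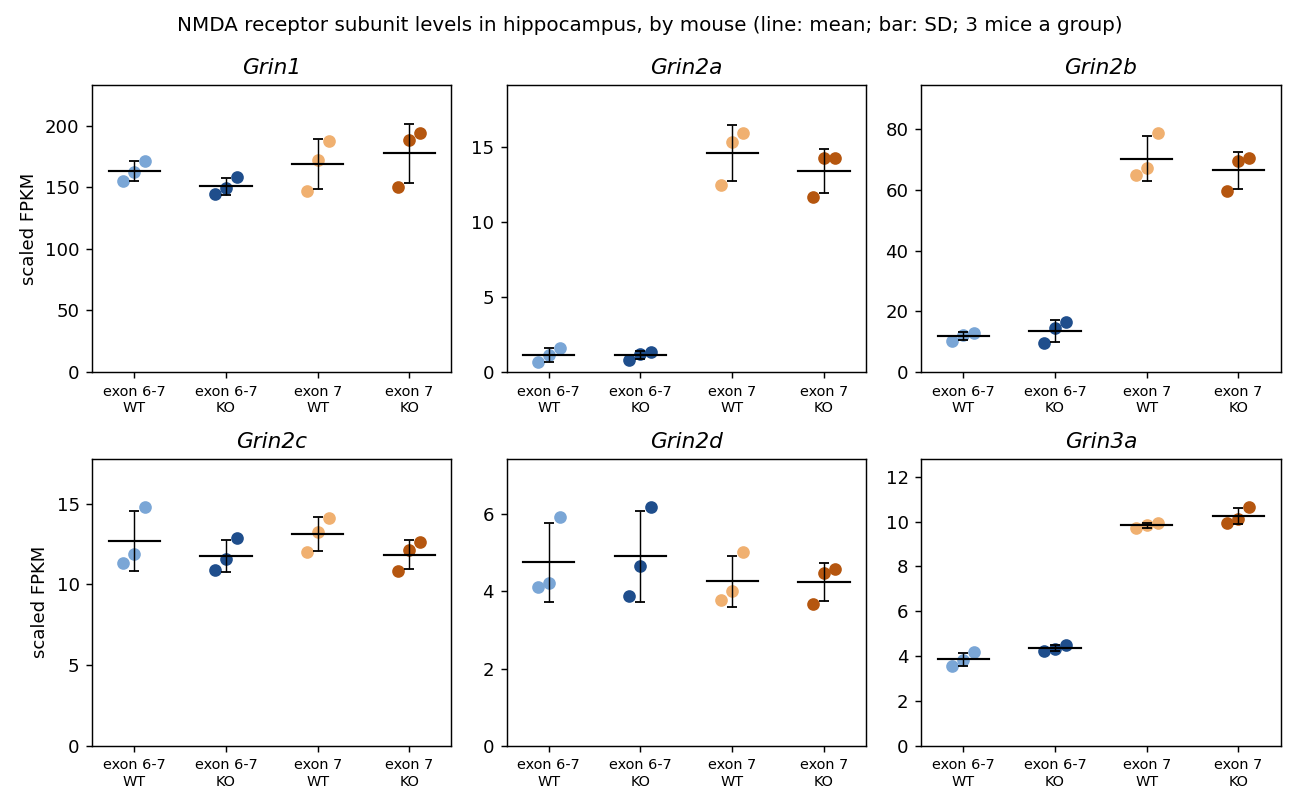
Level of each subunit gene in each mouse (scaled FPKM, linear axes from 0; points are mice, lines means, bars SD, 3 mice a group). Grin2a, Grin2b and Grin3a lie higher in all exon 7 mice than in all exon 6-7 mice, while Grin1, Grin2c and Grin2d overlap between the lines. Of all tested genes, 67.1% were called between the wild-type groups of the lines.

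The order of the subunits differed between the lines. Levels of different genes rest on the lengths behind the FPKM, which may differ from those given above. In the exon 6-7 line Grin1 was followed by Grin2b and Grin2c, whose ranges overlapped, then by Grin2d and Grin3a, whose ranges overlapped, and Grin2a came last in every mouse. With exon 7 mice, Grin1 was followed by Grin2b, then by Grin2a and Grin2c with overlapping ranges, then Grin3a, and Grin2d came last in every mouse. The mean of Grin2c in that first line exceeded that of Grin2b in wild type (12.7 ± 1.88 against 11.8 ± 1.35) and not in knockout mice (11.8 ± 0.994 against 13.5 ± 3.58), within overlapping ranges each time.

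Knockout did not go with a called change of any subunit. In the exon 6-7 line 0 of 6 members passed limma's adjusted p of 0.05, where 0.0141% of all tested genes did (2 genes, Shank2 among them). An unadjusted p under 0.05 by limma was found for 0 of 6 members and 4.10% of all tested genes, so that 0 of 6 is near the background. The 6 log2 fold changes of (scaled FPKM + 1) lay between -0.11 for Grin1 and 0.15 for Grin2b, with a median of 0.016 against -0.0020 over all tested genes. Leaving out 1 knockout mouse took the estimate for Grin2b to 7.05e-05 and leaving out another took it to 0.36. The 95% intervals ran from -0.36 to 0.14 for Grin1, from -0.37 to 0.36 for Grin2a, from -0.22 to 0.51 for Grin2b, from -0.34 to 0.16 for Grin2c, from -0.33 to 0.40 for Grin2d and from -0.043 to 0.32 for Grin3a. Changes within these bounds could not be told from 0 with 3 mice a group. The estimates for Grin2a, Grin2c and Grin2d were -0.0027, -0.092 and 0.035, and all 6 adjusted p were 0.9998.

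For the exon 7 line 0 of 6 members were called as well, where 0% of all tested genes were (0 genes at the adjusted p of 0.05). An unadjusted p under 0.05 by limma was found for 491 of all tested genes (3.45%) and again for 0 of 6 members, near that background. The log2 fold changes were 0.068 (95% interval -0.18 to 0.32) for Grin1, -0.11 (-0.48 to 0.25) for Grin2a, -0.078 (-0.44 to 0.29) for Grin2b, -0.14 (-0.39 to 0.11) for Grin2c, -0.0051 (-0.37 to 0.36) for Grin2d and 0.053 (-0.13 to 0.24) for Grin3a. Their median was -0.041 against -0.0084 over all tested genes, and the adjusted p was 1 for each. Grin2c had the lowest estimate, with knockout mice at 10.8 to 12.6 and wild-type mice at 12.0 to 14.1.

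Only Grin3a in the exon 6-7 line had groups that did not overlap, with knockout mice above wild-type mice (4.34 ± 0.133 against 3.85 ± 0.294, SD, n = 3 each). Its log2 fold change was 0.14 and the exact two-sided permutation test over mice gave p = 0.1, the smallest that 20 relabellings allow. In that line 11.3% of all tested genes had groups that did not overlap, 5.02% with the knockout above, so 1 of 6 members is near the background. Such groups were found in 7.03% of tested genes and 0 of 6 members for the exon 7 line.

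The difference between the lines' knockout effects was tested for each member and called for 0 of 6, where 0.00703% of all tested genes were called (1 gene). Exon 7 effect minus exon 6-7 effect was 0.18 for Grin1, -0.11 for Grin2a, -0.23 for Grin2b, -0.045 for Grin2c, -0.041 for Grin2d and -0.087 for Grin3a, all with limma adjusted p = 0.9998 and intervals that held 0. The exact p over 400 relabellings of genotype within lines was 0.27 or higher for each.

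Averaged over both lines, 0 of 6 members were called, where 0.0141% of all tested genes were. The mean knockout effect was -0.021 for Grin1, -0.058 for Grin2a, 0.035 for Grin2b, -0.11 for Grin2c and 0.015 for Grin2d. For Grin3a it was 0.097 (95% interval -0.033 to 0.23), with the knockout mouse above the wild-type mean of its line in 6 of 6 mice, an adjusted p of 0.9997 by limma and an unadjusted exact permutation p of 0.01 over 400 relabellings. An exact p that low was reached by 0.922% of all tested genes, 0.422% with a higher level in knockout mice. Grin2c was below the wild-type mean of its line in 5 of 6 knockout mice (exact permutation p = 0.155). Fewer cells that express a subunit and less RNA per cell cannot be told apart in whole hippocampus.

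**Figure D2:**
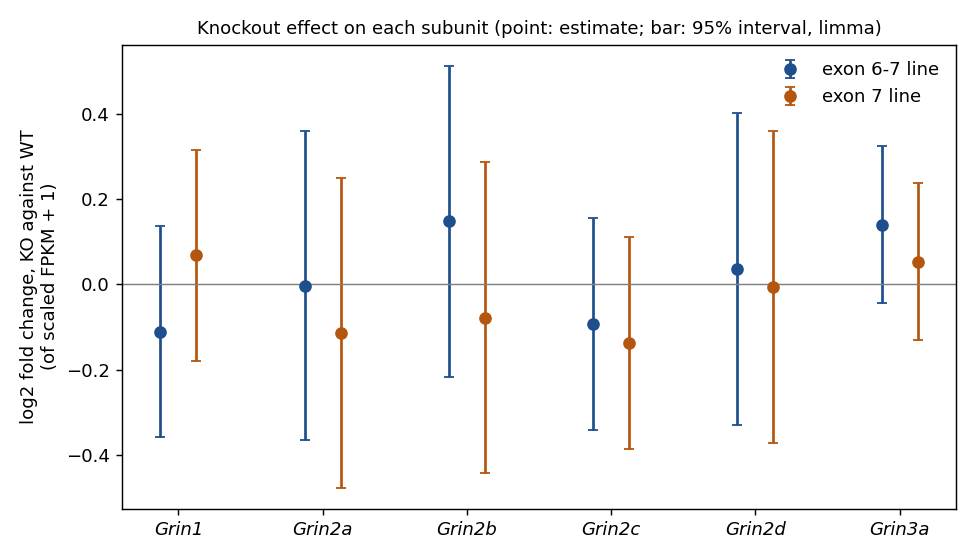
Knockout effect on each subunit in the exon 6-7 line (blue) and the exon 7 line (orange), as log2 fold change of (scaled FPKM + 1) with the 95% interval of the limma fit. All 12 intervals include 0, and the estimates lie between -0.14 and 0.15.

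The ratio of Grin2a to Grin2b, often used as an index of receptor maturation, was taken within each mouse from the FPKM values, so that the scaling of the library drops out. It was 0.0534, 0.130 and 0.112 in the exon 6-7 wild-type mice and 0.0838, 0.0813 and 0.0867 in the knockout mice. Exon 7 mice had 0.159, 0.237 and 0.238 in the wild-type and 0.166, 0.206 and 0.240 in the knockout mice. Genotypes overlapped in both lines, and the highest exon 6-7 mouse lay below the lowest exon 7 mouse.

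Knockout minus wild type, on the log2 scale, was -0.14 in the exon 6-7 line (pooled SD 0.490, exact permutation p = 0.9) and -0.042 in the exon 7 line (pooled SD 0.303, exact permutation p = 1). The difference between these effects was 0.094 (exact permutation p = 0.865) and their mean -0.089 (exact permutation p = 0.73). In the exon 6-7 line the single pair of mice from the set of 4 libraries differed by 0.65 and the other 4 mice by -0.53, so that the sign of the ratio's difference was not the same in the sets. Among exon 7 mice the lowest ratios of both genotypes came from that set. Between the wild-type groups the ratio was 2.25-fold higher in the exon 7 line (0.211 ± 0.0454 against 0.0988 ± 0.0403, SD, n = 3 each; exact permutation p = 0.1, the smallest possible). The log2 difference of 1.17 fell to 0.46 with length and GC trends removed and to 0.40 with 1 added to each scaled FPKM (exact permutation p = 0.3 each).

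The ratios of Grin2a, Grin2b and Grin3a to Grin1 were separate between the lines, and those of Grin2c and Grin2d were not. The share of all tested genes whose ratio to Grin1 parts the lines is not given here. By level, 67.1% of all tested genes were called between the wild-type groups by limma. Grin2a to Grin1 was 0.00442 to 0.00937 among exon 6-7 mice and 0.0737 to 0.0926 among exon 7 mice, and Grin2b to Grin1 was 0.0635 to 0.104 and 0.307 to 0.536. Grin2c to Grin1 was 0.0660 to 0.0955 and 0.0575 to 0.0902, and Grin2d to Grin1 0.0240 to 0.0428 and 0.0232 to 0.0268, with overlapping ranges for both. Grin3a to Grin1 was 0.0222 to 0.0300 and 0.0512 to 0.0677.

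Within lines, 2 of the 10 ratios to Grin1 had genotypes that did not overlap. The ratio of Grin2a to Grin1 in exon 7 mice was 0.0852, 0.0821 and 0.0926 in the wild-type mice and 0.0783, 0.0758 and 0.0737 in the knockout mice, all knockout mice being lower (log2 difference -0.19, pooled SD 0.0700). The ratio of Grin3a to Grin1 in exon 6-7 mice was 0.0230, 0.0222 and 0.0257 in the wild-type mice and 0.0300, 0.0282 and 0.0282 in the knockout mice, all knockout mice being higher (log2 difference 0.29, pooled SD 0.0847). Each gave an exact permutation p of 0.1, the smallest possible with 3 mice against 3. Grin2a and Grin3a have longer transcripts than Grin1. With length and GC trends removed, exon 7 knockout effects were -0.044 for Grin2a and 0.046 for Grin1, against -0.11 and 0.068 before. Those in the exon 6-7 line were 0.073 for Grin3a and -0.091 for Grin1, against 0.14 and -0.11 before. Of all tested genes with a value in every mouse, 13.8% had a ratio to Grin1 that parted the genotypes in the exon 6-7 line and 5.47% had one in the exon 7 line. By direction, 3.79% had a ratio to Grin1 lower in every knockout mouse in the exon 7 line, and 12.5% had one higher in every knockout mouse in the exon 6-7 line. The difference of the effects between lines was -0.32 for Grin2a to Grin1 (exact permutation p = 0.41) and -0.30 for Grin3a to Grin1 (exact permutation p = 0.14).

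The other ratios to Grin1 did not part the genotypes. The log2 differences in exon 6-7 mice were 0.13 for Grin2a (exact permutation p = 0.7), 0.27 for Grin2b (exact permutation p = 0.3), 0.012 for Grin2c (exact permutation p = 1) and 0.15 for Grin2d (exact permutation p = 0.5). Among exon 7 mice they were -0.15 for Grin2b (exact permutation p = 0.6), -0.22 for Grin2c (exact permutation p = 0.3), -0.074 for Grin2d (exact permutation p = 0.4) and -0.010 for Grin3a (exact permutation p = 0.7). The 6 ratios made 24 tests of knockout effects, within lines, between them and over both, and none of the 24 reached an unadjusted p of 0.05, which the tests within a line could not reach.

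As shares of the summed GluN2 FPKM, the ranges of all 4 genes were separate between the lines. In the exon 6-7 line Grin2b made up 40.8 ± 4.27%, Grin2c 39.9 ± 3.98%, Grin2d 15.6 ± 1.68% and Grin2a 3.73 ± 1.14% (SD, n = 6 mice of both genotypes). Among exon 7 mice Grin2b made up 68.9 ± 3.14%, Grin2a 14.2 ± 1.97%, Grin2c 12.6 ± 1.13% and Grin2d 4.31 ± 0.692% (SD, n = 6). Mean levels in the exon 6-7 and exon 7 lines were 12.2 and 12.5 for Grin2c and 4.83 and 4.25 for Grin2d. Their lower shares among exon 7 mice thus go mainly with the larger sum, which the higher Grin2a and Grin2b raise. The summed GluN2 FPKM was 0.198 ± 0.0315 of that of Grin1 among exon 6-7 mice and 0.582 ± 0.0992 of it among exon 7 mice. Ranges of wild-type and knockout mice overlapped for all 4 genes in both lines. Among exon 6-7 mice Grin2a held 3.89 ± 1.76% in wild type and 3.57 ± 0.334% in knockout, Grin2b 38.9 ± 2.62% and 42.6 ± 5.33%, and Grin2c 41.7 ± 2.68% and 38.2 ± 4.81% (SD, n = 3 each). Among exon 7 mice Grin2a held 14.4 ± 2.45% and 14.0 ± 1.92%, and Grin2c 12.8 ± 0.947% and 12.4 ± 1.45% (SD, n = 3 each).

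**Figure D3:**
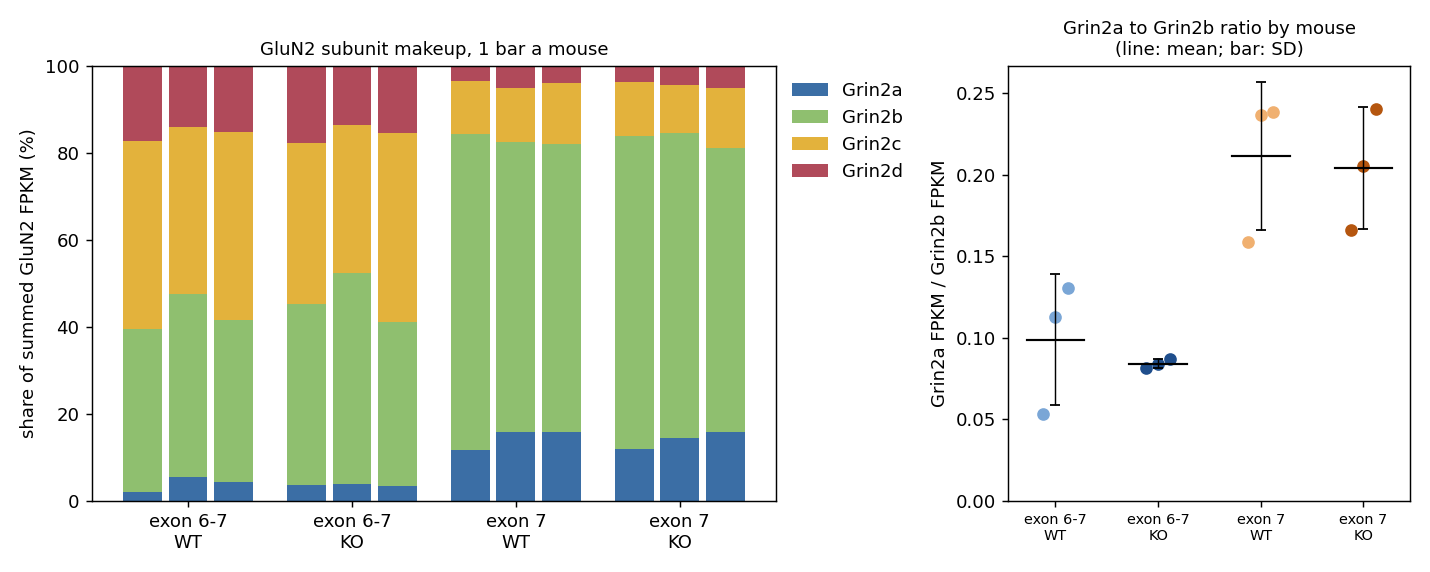
Left, share of each GluN2 gene in the summed GluN2 FPKM, 1 bar per mouse (percent). Right, ratio of Grin2a to Grin2b FPKM per mouse with group mean and SD; all 6 exon 7 mice (0.159 to 0.240) lie above all 6 exon 6-7 mice (0.0534 to 0.130), and genotypes overlap within each line.

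The gap between the lines was tested on the wild-type mice, in which neither deletion is present. Grin2a was 12.7-fold higher in exon 7 than in exon 6-7 wild-type mice (14.6 ± 1.85 against 1.15 ± 0.459, SD, n = 3 each; log2 difference of scaled FPKM + 1 of 2.88, SE 0.166, limma adjusted p = 6.11e-08). Grin2b was 5.95-fold higher (70.3 ± 7.46 against 11.8 ± 1.35; log2 difference 2.48, SE 0.167, limma adjusted p = 1.58e-07), and Grin3a 2.56-fold higher (9.84 ± 0.114 against 3.85 ± 0.294; log2 difference 1.16, SE 0.0842, limma adjusted p = 2.67e-07). These 3 of 6 members were called higher, where 34% of all tested genes were called higher and 33.1% lower, 67.1% in all. Among genes with a longest transcript of 10000 bases or more, which hold Grin2a and Grin2b, 87.8% were called higher. The share was 79.6% from 6000 to 8000 bases (Grin3a) and 57.2% from 4000 to 6000 bases (Grin1, Grin2c and Grin2d). Grin1 (log2 difference 0.046, 95% interval -0.20 to 0.29), Grin2c (0.052, -0.20 to 0.30) and Grin2d (-0.12, -0.49 to 0.24) did not pass the test (limma adjusted p = 0.734, 0.701 and 0.543), although Grin1 passed at 0.53 under quantile normalization and the signs of all 3 turned under other scalings (Grin1 -0.11 and Grin2c -0.091 with FPKM as deposited, Grin2d 0.060 as TPM). Line, housing, handling and sequencing cannot be told apart in this comparison. The mitochondrial share parted the same groups (6.22 to 6.81% against 10.3 to 13.6%), and its part in the gap was not tested.

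Markers of cell types and of neighbouring regions also differed between the wild-type groups. In the exon 7 line 3 of 4 neocortical markers were called higher and 0 lower (summed level 54.4 to 58.4, against 37.5 to 43.5; median log2 difference 0.55), as were 3 of 4 thalamic markers, with 1 lower (30.3 to 34.3 against 20.1 to 26.7; 0.70). Of the CA1 pyramidal cell markers 3 of 4 were called lower and 0 higher (157 to 170 against 193 to 197; -0.50), of the oligodendrocyte markers 4 of 6 lower and 0 higher (4870 to 5128 against 5073 to 6386; -0.70), and of the interneuron markers 5 of 8 lower and 2 higher (580 to 786 against 1075 to 1132; -0.41). Dentate granule cell markers had 3 of 5 called higher and 1 lower (0.50), and CA3 markers 2 of 4 higher and 1 lower (0.58). All 3 oligodendrocyte precursor markers were called higher (0.61), and 2 of 3 endothelial markers higher and 1 lower (0.62). Astrocyte markers had 4 of 8 higher and 3 lower (0.082). The excitatory neuron, microglia and striatal lists had 1 higher and 1 lower each, and choroid plexus 1 higher and 0 lower. These counts stand beside the same 34% higher and 33.1% lower over all tested genes, and the part of tissue makeup in the subunits' gap was not tested.

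Transcript length moved with the gap. Over genes with a longest transcript under 2000 bases the median log2 difference between the lines' wild-type mice was -0.75, over those from 4000 to 6000 bases, which hold Grin1, Grin2c and Grin2d, it was 0.42, over those from 6000 to 8000 bases, which hold Grin3a, 0.88, and over the 343 genes of 10000 bases or more, which hold Grin2a and Grin2b, 1.40. Across 14056 genes, which are not independent, Spearman's rho of length with the difference was 0.67, and rho of GC content was -0.41. Within this longest class, 17 of the 343 genes, Grin2a included, had a difference at least as high as Grin2a, and 30 had one at least as high as Grin2b. The class has no upper bound. Of all tested genes with an annotated length, 99.5% have a shorter longest transcript than Grin2a and 99.96% a shorter one than Grin2b. Most genes of the class are thus shorter than either, and these ranks do not compare genes of like length. After removal of the length and GC trends from each library, the log2 difference fell to 1.41 for Grin2a (limma adjusted p = 3.41e-05), 0.95 for Grin2b (limma adjusted p = 4.34e-05) and 0.22 for Grin3a (limma adjusted p = 0.0305). The same 3 members passed the test, and Grin1 (0.14), Grin2c (0.050) and Grin2d (-0.18) did not. The share of all tested genes called after this removal is not given here, so these 3 of 6 cannot be set against it. The part of length, fragmentation or RNA quality in the gap was not tested further. The length trend of the knockout effects was weaker, with a rho of 0.35 for exon 6-7 mice and -0.18 for exon 7 mice.

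**Figure D4:**
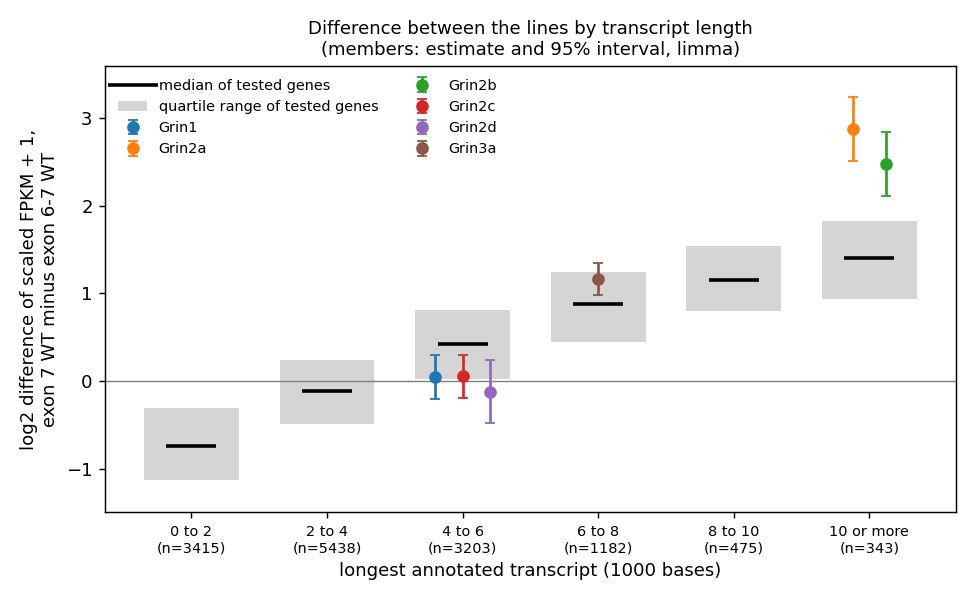
Log2 difference of (scaled FPKM + 1), exon 7 wild type minus exon 6-7 wild type, by class of the longest annotated transcript in units of 1000 bases (black, median of tested genes; grey, quartile range; colours, the 6 subunits with 95% limma intervals). Grin2a and Grin2b lie above the quartile range of the longest class, Grin3a within that of its class, and Grin1, Grin2c and Grin2d near 0 under this scaling (Grin1 at 0.53 under quantile normalization). The class of these last genes has a quartile range of 0.028 to 0.81. Grin1 and Grin2c lie at its lower end and Grin2d below it.

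Genes that work with the receptor were taken from 4 lists. Knockout calls in each list stand beside a background of 0.0141% (exon 6-7) and 0% (exon 7) of all tested genes. A count of 0 is near that background. Among 20 scaffolds and adaptors, which tie the receptor to the postsynaptic density, 0 were called in either knockout comparison, with a median log2 fold change of 0.011 for the exon 6-7 line and -0.023 for the exon 7 line. The smallest p in the exon 6-7 line belonged to Dlg2, the PSD-93 scaffold (8.08 ± 2.0 in wild type, 11.1 ± 0.720 in knockout, log2 fold change 0.43, adjusted p = 0.9998), followed by the adaptor Lin7b (-0.28). For exon 7 mice these were Homer1 (-0.29), Dlg1 (-0.17) and Lin7b (0.13), each with an adjusted p of 1 by limma. Between the wild-type groups, where over all tested genes 34% were called higher and 33.1% lower, 12 of 20 were called higher in the exon 7 line (among them Dlg2, Homer1, Cask, Dlgap2, Shank1, Dlgap1, Lin7c, Lin7a, Dlg1, Shank3 and Apba1) and 2 lower (Lin7b and Nsmf). Dlg2, at a log2 difference of 3.36, exceeded Grin2a, and the median of the list was 0.95. Dlg4, the PSD-95 scaffold that binds GluN2 tails, did not pass the test (0.032).

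Among 25 kinases, phosphatases and calcium signalling genes, 0 were called in either knockout comparison, with medians of 0.013 and 0.035. The 3 smallest p belonged to Cdk5 (-0.18), the calmodulin gene Calm3 (-0.16) and the nitric oxide synthase Nos1 (0.15) in the exon 6-7 line. For exon 7 mice they belonged to Ptpn5 (-0.27), the phosphatase STEP that acts on GluN2B, the Cdk5 activator Cdk5r1 (0.25) and the exchange factor Rasgrf2 (-0.22), all with an adjusted p of 1 by limma. Between the wild-type groups 14 of 25 were called higher in the exon 7 line, against 34% of all tested genes (Rasgrf2, Nos1, Akap5, Prkca, Camk4, Prkcb, Creb1, Camk2d, Camk2a, Rasgrf1, Ppp3cb, Fyn, Cdk5r1 and Ppp3ca) and 4 lower, against 33.1% (Cdk5, Calm3, Calm2 and Ptpn5), with a median of 0.31. Camk2a, the kinase that docks on GluN2B, differed by 0.76 there and by 0.013 and 0.060 between genotypes in the exon 6-7 and exon 7 lines.

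Of 16 genes of co-agonist and glutamate supply 14 were tested, and 0 were called in either knockout comparison, with medians of -0.014 and -0.029. The glutaminase Gls2 had the smallest p in both lines (-0.24 and -0.30, limma adjusted p = 0.9998 and 1), followed by the serine synthesis enzyme Phgdh (-0.18) and the glycine transporter Slc6a9 (-0.12) in the exon 6-7 line and by Slc6a9 (-0.14) and the D-serine transporter Slc7a10 (0.12) in the exon 7 line. Of the 14, 8 were called higher in the exon 7 wild-type group, against 34% of all tested genes (among them Slc1a2, Srr, Slc1a3, Slc1a1, Slc6a9, Slc1a4 and Glul) and 3 lower, against 33.1% (Phgdh, Slc7a10 and Shmt2). Serine racemase, Srr, which makes the co-agonist D-serine, differed by 1.30, and Phgdh, which makes its precursor, by -1.35.

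Among 12 surface partners 0 were called in either knockout comparison, with medians of 0.066 and 0.010. The reelin receptor Lrp8 (0.23) and the auxiliary protein Neto1 (0.12) were among those with the smallest p in the exon 6-7 line, and Ephb3 (-0.10) and Lrp8 (-0.064) in the exon 7 line, with limma adjusted p of 0.9998 and 1. Of the 12, 9 were called higher in the exon 7 wild-type group, against 34% of all tested genes (among them Grm5, Lrp8, Neto1, Nlgn1, Vldlr, Efnb2, Ephb2 and Ephb1) and 1 lower, against 33.1% (Ephb3), with a median of 1.06. In all 4 lists the gap between lines stands beside the length trend given above, and its part in these calls was not tested per list.

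How the members varied from mouse to mouse within lines was described by the deviations of their log2 levels from the mean of the line, over 12 mice that share library sets and scaling. Among the 15 pairs of members Pearson's r ran from -0.57 for Grin2c with Grin3a to 0.58 for Grin1 with Grin2a, and Grin2a with Grin2b had 0.13. The genes most like Grin1 were Ap2s1, a clathrin adaptor subunit (r = 0.98), the neuronal calcium sensor Hpca (0.98) and the mitochondrial ribosome gene Mrps26 (0.98), and 196 tested genes had an r over 0.9 with Grin1. Those most like Grin2b were Htt (0.96), Tnrc6b (0.96) and Gm14827 (0.93), with longest transcripts of 13215, 17332 and 3089 bases. Grin2a went most closely with Ten1 (0.90), Ccdc159 (0.90) and Ghdc (0.89), with longest transcripts of 2092, 1531 and 2462 bases. Grin2c went most closely with Siah2 (0.90), Slc15a4 (0.89) and Ube2g2 (0.89), and Grin2d with Celf2 (0.94), Klhl26 (0.91) and Greb1l (0.89). The genes closest to Grin3a were Tnfrsf18 (0.94), 1110046J04Rik (0.89) and Slc16a14 (0.89). These values are descriptions without a test.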

How the data were processed

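Poly(A) RNA from hippocampi was made into TruSeq libraries, per the labels' protocols, and CASAVA, GSNAP, Cufflinks and mm10 are named, without roles, in the processing notes of the submitters. The authors deposited FPKM values by gene, 1 table a mouse (Ensembl release 74 identifiers, per the file headers). Genes absent from a table were set to 0. Scaling used median-of-ratios factors (0.918 to 1.07) from 12506 genes that reached 1 FPKM in all 12 libraries. Genes averaging 1 FPKM or more, small RNAs left out, were tested with limma 3.58.1 (R 4.3.3; trend, 1 mean per group, 8 residual degrees of freedom, Benjamini-Hochberg over 14215 genes) on log2(scaled FPKM + 1), a scale that understates the change of low genes such as Grin2a. Exact two-sided permutation tests used mice as units. Lengths and symbols came from GENCODE M21, and these lengths may differ from those behind the deposited FPKM. The fit was checked on simulated data. Mouse numbers mark separate animals; the labels give no litter, so p-values measure the spread between mice only.

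The members and lists were chosen with earlier results of these data known. Named are all 6 members, Shank2, Grin3b, the marker genes, in each list every gene past the threshold and otherwise the 3 genes with the smallest p in each line, and the 3 genes most like each member; Camk2a, Srr, Phgdh and Dlg4 were given further values after these were seen. Some items that this rule names are not reported here. Alternatives covered pseudocount, filter, scaling, weights, library set, length and GC content, separate fits and each mouse left out.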

Additional observations from a re-analysis of the deposited data

How the results depend on the processing

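No paired analysis was possible because every mouse number occurs once, so that no number links a knockout to a wild-type mouse. In each alternative run, 0 of the members and list genes tested under it were called between genotypes. The main fit called 0.0141% (exon 6-7) and 0% (exon 7) of all tested genes, so 0 calls is near that background. Such shares are not given here for the alternative runs, so their 0 calls cannot be set against them. Grin2d was not tested under the filter of 5 FPKM, and fits of each line alone give no difference or mean of both lines. In the alternatives that compare the wild-type groups, Grin2a, Grin2b and Grin3a were called, where the main fit called 67.1% of all tested genes. Quantile normalization added Grin1 there (log2 difference 0.53), and 42 to 55 of the list genes were called against 53. Over alternatives that difference was 1.41 to 3.62 for Grin2a, 0.95 to 2.73 for Grin2b and 0.22 to 1.45 for Grin3a. With FPKM as deposited, Grin1 turned to -0.11 and Grin2c to -0.091 (quantile normalization, -0.053), and Grin2d turned to 0.060 as TPM, 0.10 with a term for the library set and 0.092 without that set of 4 libraries.

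Knockout effects near 0 changed sign. In the exon 6-7 line Grin2a was 0.015 with a pseudocount of 0.1, 0.044 as TPM and 0.00123 with each line fitted alone. In the exon 7 line Grin2d was 0.0015 with FPKM as deposited, 0.0014 as TPM, 0.0019 fitted alone, 0.020 with quality weights and 0.00558 without the set. The difference between lines was 0.073 for Grin2a without the set, and 0.047 for Grin2a and 0.018 for Grin3a with length and GC trends removed. The mean effect was 0.029 (quantile) and 0.012 (TPM) for Grin1 and -0.00753 (quantile) for Grin2d. Among ratios, Grin2a to Grin1 in the exon 6-7 line was -0.000506 with trends removed and -0.26 without the set, its difference between lines 0.040 without the set, and Grin3a to Grin1 in the exon 7 line 0.046 with trends removed.

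Leaving out 1 mouse at a time moved some effects across 0. In the exon 6-7 line the ranges were -0.17 to 0.15 for Grin2a, 7.05e-05 to 0.36 for Grin2b (sign kept), -0.16 to 0.016 for Grin2c and -0.12 to 0.18 for Grin2d. In the exon 7 line they were -0.029 to 0.18 for Grin1, -0.13 to 0.0057 for Grin2b and -0.073 to 0.095 for Grin2d. The difference between lines ran from -0.26 to 0.054 for Grin2a, -0.15 to 0.027 for Grin2c and -0.18 to 0.11 for Grin2d. The mean effect ran from -0.069 to 0.037 for Grin1, -0.14 to 0.018 for Grin2a, -0.039 to 0.14 for Grin2b and -0.060 to 0.086 for Grin2d. Between wild-type groups Grin1 ran from -0.031 to 0.14, Grin2c from -0.023 to 0.16 and Grin2d from -0.22 to 0.018. The Grin2a to Grin2b ratio ran from -0.53 to 0.11 in the exon 6-7 line, -0.24 to 0.098 in the exon 7 line, -0.16 to 0.49 for the difference and -0.29 to 0.036 for the mean. Ratios to Grin1 ran from -0.16 to 0.38 (Grin2a, exon 6-7), -0.18 to 0.095 (Grin2a, mean), -0.31 to 0.035 (Grin2b, exon 7), -0.020 to 0.17 (Grin2b, mean), -0.10 to 0.16 (Grin2c, exon 6-7), -0.058 to 0.36 (Grin2d, exon 6-7), -0.066 to 0.14 (Grin2d, mean) and -0.12 to 0.094 (Grin3a, exon 7). The cause was not tested. FPKM keeps no read total, so counting error is unknown, and 3 mice a group limit what could be detected.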
